A study of Arabidopsis thaliana with 6 samples.

Results

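The Argonaute family of Arabidopsis thaliana has 10 genes, AGO1 to AGO10. They were taken by locus identifier from tables of reads counted past the 3′ ends of genes, where they account for 10 of 31109 genes and 14 of 39087 deposited transcripts. The tables come from whole seedlings of the Col-0 ecotype at 9 days of age, in 3 genotypes with 2 libraries each: cpsf30-1, nerd-1 and WT. The cpsf30-1 plants carry a mutation in CPSF30 and the nerd-1 plants a mutation in NERD, and how either allele was made is not given in the sources used here. All 6 libraries were stranded polyA libraries from DNase-treated RNA, sequenced as pairs of 125 bases. The labels do not state whether the replicates were grown apart, so p-values measure the spread between these libraries, which may be technical.

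Argonaute proteins bind small RNAs and use them to find matching transcripts or chromatin. In plants AGO1 loads most microRNAs and cuts or represses their target mRNAs, AGO2 acts in antiviral defence, AGO7 works with miR390 to start the production of trans-acting small interfering RNAs, and AGO4, AGO6 and AGO9 guide DNA methylation. NERD is a GW-repeat protein that binds AGO2 and takes part in a small RNA pathway at some loci. CPSF30 belongs to the machinery that cuts pre-mRNA at its 3′ end before polyadenylation.

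Each deposited value is a count of reads in the 500 bases just past the annotated 3′ end of a transcript, called a window here. A window value is therefore not the level of the Argonaute mRNA itself, and it can hold reads of a neighbouring gene. In a sample made of many cell types, fewer cells that make an RNA and less of it in each cell cannot be told apart. For each gene the transcript that ends farthest downstream in the TAIR10.1 gene models was kept. Levels are given as CPM, the count scaled to the normalised library size, and since every window has the same length they can be compared between genes.

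The place of each window decides what its reads can belong to. Of the 10 windows, 5 had no other annotated gene in them (AGO2, AGO3, AGO6, AGO7 and AGO10). A gene on the other strand lay in 3 windows (AGO4, AGO8 and AGO9) and a gene on the same strand in 2 (AGO1 and AGO5). AGO1 has a close neighbour downstream. AT1G48405, a KIP1-like family gene read in the same direction, begins 18 bases past the end of the longest AGO1 transcript. The junction is shown because the largest difference among the tested members falls on it, with the 18 bases between the genes in capitals and the first coding bases of AT1G48405 in lower case. It lies on the minus strand at chr1:17885603-17885632 of TAIR10.1.
AGO1 to AT1G48405: AAGCAATCGACAGAATCCatggatgcctct

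AGO1, AGO2 and AGO3 are themselves targets of microRNAs, and the sites show how far the counted windows lie from the best known control points of these genes. The mature microRNAs are given 5′ to 3′ with the seed, bases 2 to 8, in capitals, as RefSeq annotates them on TAIR10.1. The miR168 copies, from chr4:10578652-10578672 on the plus strand and chr5:18358873-18358893 on the minus strand, have the same mature sequence. The miR403 sequence comes from chr2:19415154-19415174 on the plus strand.
miR168a-5p and miR168b-5p: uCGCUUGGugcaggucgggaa
miR403-3p: uUAGAUUCacgcacaaacucg

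In the target sites the bases that pair with the microRNA as A with U or G with C are in capitals. A G opposite a U was not counted as a pair. The miR168 site of AGO1 is in coding sequence in exon 2 of 23, at chr1:17891529-17891549 on the minus strand, and pairs at 18 of 21 bases. It lies 2866 transcript bases before the end of AGO1. The miR403 sites of AGO2 (chr1:11185223-11185243, plus strand, 20 paired bases) and AGO3 (chr1:11192399-11192419, plus strand, 18 paired bases) are in the 3′ UTR of exon 3, 153 and 154 bases before the end. Every one of these sites lies upstream of its window, so the counts describe RNA past the site and not the site itself.
AGO1 site: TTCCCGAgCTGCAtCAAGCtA
AGO2 site: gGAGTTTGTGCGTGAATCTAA
AGO3 site: gatGTTTGTGCGTGAATCTAA

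The libraries held 9764394 to 11291784 counts in the mutants and 8703050 and 13740648 in WT, with 1 window per gene, so that 3 counts correspond to 0.226 to 0.339 CPM. Of the mutated genes, the window past the shorter CPSF30 transcript checked the label. That window, chr1:10770686-10771185, lies mostly within the longer CPSF30 transcript (minus strand, end at 10770813), so it can hold reads of the longer form. It had 1 and 0 counts in cpsf30-1, 66 and 58 in nerd-1, and 43 and 49 in WT. Its longer form had just 2 to 16 counts past the end in any library. The NERD window was at or near 0 in every library and checks nothing. Windows past 5 green shoot markers summed to 21541 and 24608 counts in cpsf30-1, 12658 and 18405 in nerd-1, and 17620 and 43967 in WT, and those past 5 root markers to 172 and 192, 304 and 266, and 220 and 242 in the same order of genotypes. Nearly all of the green shoot counts in most libraries came from LHCB2.1. Of the other green shoot markers GUN5 had 614 and 818 counts in cpsf30-1, 18 and 14 in nerd-1, and 6 and 11 in WT. PSAD-1 and LHCA1 were also highest in both cpsf30-1 libraries (LHCA1 had 105 and 76 counts there against 3 to 20 in the other 4), and RBCS1A was uneven within genotypes (4515 and 86 in cpsf30-1, 3 and 1 in nerd-1, 2736 and 5 in WT). Of 3 flower markers AG was at 0, and the sums were 0 to 6 counts. As raw counts the root sums were lower in both cpsf30-1 libraries than in the other 4, and those past GUN5, PSAD-1 and LHCA1 were higher. Scaled for depth, CASP1, with most of the root counts, overlapped between cpsf30-1 (11.8 and 13.4 CPM) and WT (19.6 and 12.8 CPM). LHCB2.1 overlapped between all genotypes, at 1540 and 2170 CPM in cpsf30-1, 1230 and 1910 in nerd-1, and 1670 and 3300 in WT. The part of these markers in the results was not tested.

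In cpsf30-1, reads past AGO1 rose and the other tested Argonaute windows did not pass the test against WT. Of the 10 members 5 had enough counts to be tested (AGO1, AGO3, AGO4, AGO8 and AGO9). In edgeR's quasi-likelihood test at an adjusted p under 0.05, 1 of these 5 was called higher and 0 lower in cpsf30-1 against WT, where 7.41% of all 14151 windows were called higher, 2.85% lower and 10.3% in either direction. With so few members tested, and with windows passing the filter partly by being high in 1 genotype, these shares describe the family and do not set it apart. In nerd-1 against WT 0 of the 5 were called (2 had an unadjusted p under 0.05, as had 1390 of all 14151 windows), against 0.00707% of all windows higher, 0.0353% lower and 0.0424% in either direction. In cpsf30-1 against nerd-1 1 was called higher, AGO8, and 0 lower, against 7.38% of all windows higher, 3.24% lower and 10.6% in either direction. The 3 comparisons share libraries in pairs, so their calls are not separate evidence.

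**Figure D1:**
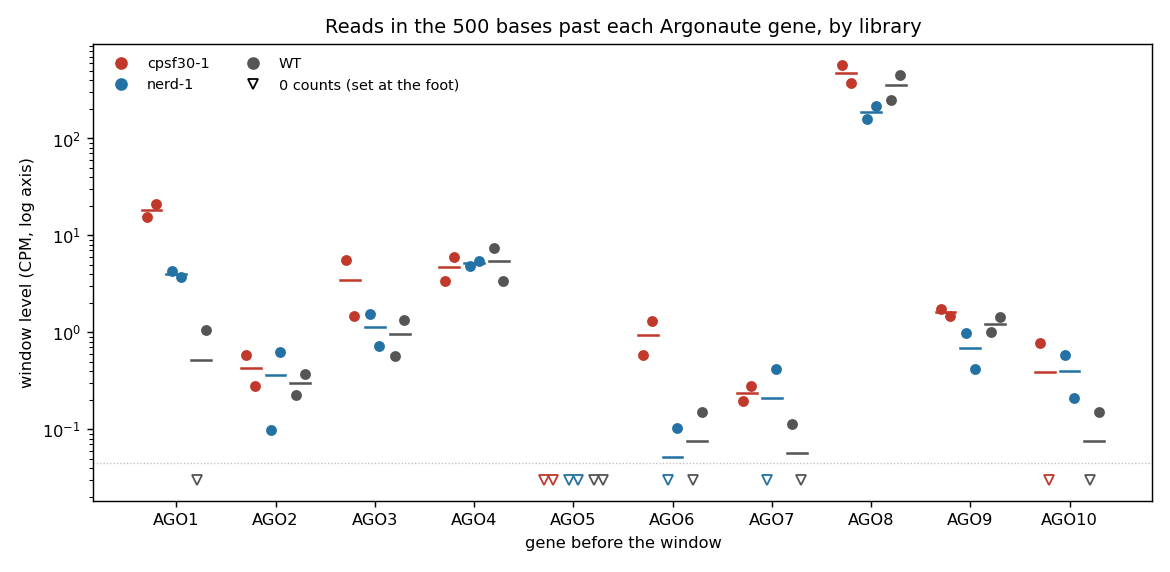
Level of the window past each Argonaute gene in CPM (log axis), with 1 point per library, a bar at the mean of each genotype, and open triangles at the foot for 0 counts. AGO1 is separated by genotype, with cpsf30-1 at 15.4 and 21.1 CPM, nerd-1 at 4.29 and 3.74 and WT at 0 and 1.05, while AGO8 lies far above the other 9 genes in every library.

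AGO1 (AT1G48410), the main microRNA effector, showed the largest difference among the 5 members tested. The window past its longest transcript, AT1G48410.3, lies on the minus strand at chr1:17885133-17885632. It held 159 and 227 counts in cpsf30-1, 44 and 36 in nerd-1, and 0 and 14 in WT. The genotypes did not overlap, with cpsf30-1 the highest, nerd-1 between and WT the lowest. As levels these were 18.2 ± 4.01 CPM in cpsf30-1, 4.02 ± 0.389 CPM in nerd-1 and 0.527 ± 0.745 CPM in WT (SD, n = 2 each).

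Against WT the rise in cpsf30-1 was 29.8-fold (log2 fold change 4.90, SE 0.725, edgeR adjusted p = 0.00949), and 0.975% of the tested windows had a higher fold change. The size rests on WT replicate 2, since the other WT library had 0 counts. Without WT replicate 1 the log2 fold change was 4.10. Without WT replicate 2 the window was at least 53.9-fold higher, set against 3 counts in the remaining WT library. With each library left out in turn the call held, at adjusted p from 0.000911 to 0.0494.

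In nerd-1 the AGO1 window was 6.58-fold above WT, but the difference did not pass after adjustment (log2 fold change 2.72, SE 0.75, edgeR adjusted p = 0.349). Without WT replicate 2, nerd-1 was at least 11.9-fold higher, set against 3 counts in the remaining WT library, which had 0. Without WT replicate 1 the log2 fold change was 1.92, and without nerd-1 replicate 1 or 2 it was 2.63 and 2.82. The difference did not pass with the replicate numbers as a block (2.89, edgeR adjusted p = 0.656) or in DESeq2 (2.89, DESeq2 adjusted p = 0.444). With no filter on low counts it passed at about the same size (log2 fold change 2.71, edgeR adjusted p = 7.24e-09). That fit called 640 windows in nerd-1 against WT, where the main fit called 6. Between the mutants, cpsf30-1 was 4.52-fold above nerd-1 (log2 fold change 2.18, SE 0.59, edgeR adjusted p = 0.0598), short of the threshold. That difference passed with the 4 libraries of the mutants alone (edgeR adjusted p = 0.00396) and with no filter (edgeR adjusted p = 3.86e-09). It did not pass with the replicate numbers as a block (log2 fold change 2.13, edgeR adjusted p = 0.129). In DESeq2 it did not pass either (2.17, DESeq2 adjusted p = 0.256). With 1 library left out in turn the log2 fold change was 1.87 to 2.37.

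Where these reads lie limits which gene they can be given to. Of the 500 bases past AT1G48410.3, 482 lie in AT1G48405 and 406 of those in its exons, so reads of a transcript running on from AGO1 and reads of AT1G48405 cannot be told apart in that window. The shorter transcripts AT1G48410.1 and AT1G48410.2 end within the longest one. Their counts were identical in every library although TAIR10.1 gives them different ends. The same held for AT2G27040.1 and AT2G27040.2 of AGO4, and for AT5G43810.1 and AT5G43810.2 of AGO10. Window positions taken from that annotation, and the overlaps and motif positions read from them, are therefore approximate for all members. The window past AT1G48410.1 at chr1:17885583-17886082 has 468 bases outside AT1G48405 and lies mostly in the last intron of AT1G48410.3, which spans 575 bases before a final exon of 25 bases.

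That inner window also rose in cpsf30-1. It held 48 and 91 counts in cpsf30-1, 8 and 4 in nerd-1, and 0 and 3 in WT. Levels averaged 6.54 ± 2.69 CPM in cpsf30-1, 0.598 ± 0.258 CPM in nerd-1 and 0.113 ± 0.16 CPM in WT (SD, n = 2 each). With the 3 WT counts, the ratio of cpsf30-1 to WT was 48.6 (95% exact interval 16.3 to 238, for counting error alone). When every deposited transcript was fitted as its own window, cpsf30-1 passed against WT (edgeR adjusted p = 0.0108) and against nerd-1 (log2 fold change 3.37, SE 0.692, 10.4-fold, edgeR adjusted p = 0.0277), where 7.87% and 7.42% of windows were called higher. In nerd-1 against WT it did not pass (log2 fold change 2.11, SE 1.01, edgeR adjusted p = 0.537), where 0.0104% were called higher. The call against WT was lost without cpsf30-1 replicate 2 (edgeR adjusted p = 0.0596), and that against nerd-1 without any 1 of the 4 cpsf30-1 and nerd-1 libraries (0.0699 to 0.191).

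The proportion of reads on the 2 sides of the longest transcript's end can be read per library. The inner window held 0.302 and 0.401 of the count of the outer window in cpsf30-1, 0.182 and 0.111 in nerd-1, and 0.214 in WT replicate 2. The 2 windows share 50 bases. The cpsf30-1 ratios were above the other 3, which rest on 3 to 8 counts in the inner window, and their difference was not tested.

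Genes on both sides of AGO1 were read in the same direction and had their own windows. D-CDES, a D-cysteine desulfhydrase gene upstream, had 294 and 339 counts past its end in cpsf30-1, 30 and 28 in nerd-1, and 10 and 20 in WT. That was 22.2-fold higher in cpsf30-1 than in WT (SE 0.255 on the log2 scale, edgeR adjusted p = 0.000757) and 10.2-fold higher than in nerd-1 (edgeR adjusted p = 0.00151). Between that window and the start of AGO1 lie 2651 bases, which no window covers. Past the end of AT1G48405 the counts were low, with 13 and 12 in cpsf30-1, 2 and 7 in nerd-1, and 2 and 0 in WT. The cpsf30-1 libraries were the highest there as well, but the difference from WT did not pass (log2 fold change 3.50, SE 1.14, edgeR adjusted p = 0.0969).

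**Figure D2:**
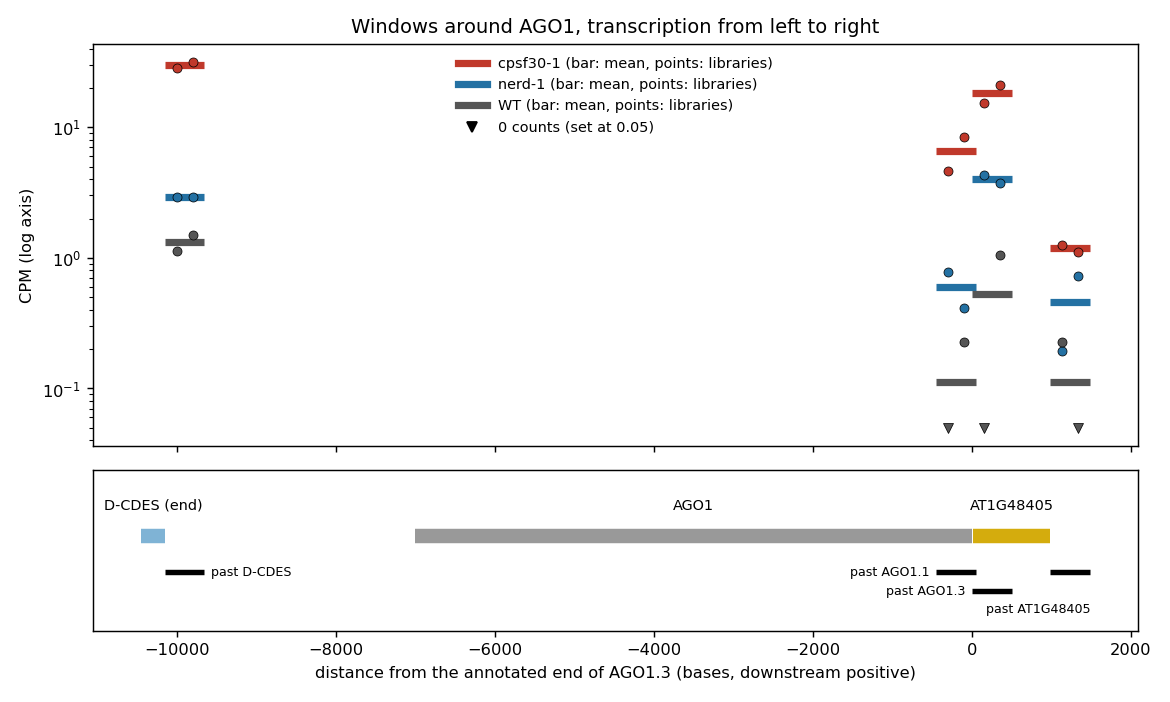
Level of the windows past D-CDES, AGO1.1, AGO1.3 and AT1G48405 in CPM (log axis), against distance in bases from the annotated end of AGO1.3, with bars for the mean of each genotype, 1 point per library and triangles for 0 counts. In each of the 4 windows the cpsf30-1 libraries are the highest, from 28.4 and 31.4 CPM past D-CDES to 1.26 and 1.11 CPM past AT1G48405.

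AGO2 and AGO3 are close relatives in tandem, 2723 bases apart on the plus strand, and their windows gave little signal. AGO2 (AT1G31280), the antiviral member that NERD binds, had 6 and 3 counts in cpsf30-1, 1 and 6 in nerd-1, and 2 and 5 in WT, in a window at chr1:11185397-11185896. These overlapped in every genotype and were too few to test. The ratio of cpsf30-1 to WT was 1.35, with an exact 95% interval of 0.447 to 4.26 that spans a fall and a rise.

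AGO3 (AT1G31290) carried more reads, but mainly in a single library. Its window at chr1:11192574-11193073, of which 12 bases are exon of a longer AGO3 model, held 57 and 16 counts in cpsf30-1, 16 and 7 in nerd-1, and 5 and 18 in WT. The level was 3.50 ± 2.85 CPM in cpsf30-1, 1.14 ± 0.59 CPM in nerd-1 and 0.96 ± 0.557 CPM in WT (SD, n = 2 each). The first cpsf30-1 library stood above the other 5, and the second lay within their range. The difference from WT was 3.49-fold (log2 fold change 1.80, SE 0.784, edgeR adjusted p = 0.188) and that from nerd-1 3.02-fold (SE 0.781, edgeR adjusted p = 0.226), so neither passed. AT1G31300, the next gene downstream, had 9 and 16 counts in cpsf30-1, 7 and 0 in nerd-1, and 1 and 0 in WT, too few to test.

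AGO4 (AT2G27040), which guides methylation by small RNAs made in the nucleus, was even across genotypes. Its window at chr2:11536002-11536501 on the minus strand held 35 and 65 counts in cpsf30-1, 50 and 52 in nerd-1, and 66 and 45 in WT. The 3 genotypes overlapped, at 4.71 ± 1.87 CPM in cpsf30-1, 5.14 ± 0.373 CPM in nerd-1 and 5.43 ± 2.89 CPM in WT (SD, n = 2 each). Log2 fold changes were -0.18 (SE 0.465) in cpsf30-1 and -0.06 in nerd-1 against WT, with edgeR adjusted p of 0.843 and 0.974. Of the window 484 bases lie on ENODL20, an early nodulin-like gene on the other strand.

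The ENODL20 window in turn covers 469 exon bases of AGO4, and is the deepest of the deposited windows of other genes that lie on exons of a member. It had 456 and 465 counts in cpsf30-1, 470 and 378 in nerd-1, and 326 and 524 in WT. As levels these were 43.6 ± 0.695 CPM in cpsf30-1, 42.6 ± 4.64 CPM in nerd-1 and 38.1 ± 1.79 CPM in WT (SD, n = 2 each). The log2 fold change was 0.19 (SE 0.198, edgeR adjusted p = 0.582) in cpsf30-1 and 0.16 (edgeR adjusted p = 0.8) in nerd-1 against WT. Whether the counting used strand is not given in the sources used here, so reads of AGO4 and of ENODL20 cannot be told apart.

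AGO6 and AGO9 act with AGO4 in DNA methylation, AGO9 mainly in the ovule. AGO6 (AT2G32940) had 6 and 14 counts in cpsf30-1, 0 and 1 in nerd-1, and 0 and 2 in WT, in a window with no other gene (chr2:13971416-13971915, minus strand). Both cpsf30-1 libraries stood above the other 4. The window was too low for the main test. The ratio of summed counts was 10.5 (exact 95% interval 2.55 to 92.5, counting error alone) against WT and 18.8 (3.01 to 780) against nerd-1. When windows of any count were fitted, AGO6 did not pass in either comparison (log2 fold change 3.24, SE 1.6, edgeR adjusted p = 0.222, and 3.89, SE 1.75, edgeR adjusted p = 0.149).

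AGO9 (AT5G21150) had 18 and 16 counts in cpsf30-1, 10 and 4 in nerd-1, and 9 and 19 in WT (chr5:7198382-7198881, plus strand, 249 bases on LARP1a of the other strand). The cpsf30-1 levels of 1.74 and 1.48 CPM were above the 0.976 and 0.416 CPM of nerd-1, and those of WT lay between at 1.02 and 1.43 CPM. None of the differences passed, with edgeR adjusted p of 0.726 for cpsf30-1 and 0.684 for nerd-1 against WT, and 0.251 for the 2.28-fold difference between the mutants. The windows past LARP1a, an RNA-binding protein gene, reach 249 exon bases of AGO9 and held 0 to 5 counts per library.

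AGO8 (AT5G21030), regarded as a pseudogene-like copy of AGO9, had by far the most reads past its end. The window at chr5:7139317-7139816 on the minus strand held 5958 and 4030 counts in cpsf30-1, 1619 and 2073 in nerd-1, and 2223 and 6004 in WT. That is 475 ± 143 CPM in cpsf30-1, 187 ± 40.7 CPM in nerd-1 and 352 ± 141 CPM in WT (SD, n = 2 each), a mean above that of 98.9% of all windows. The nerd-1 libraries were the lowest and did not overlap the others, while cpsf30-1 and WT overlapped.

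For AGO8 the difference that passed was cpsf30-1 above nerd-1, by 2.54-fold (log2 fold change 1.35, SE 0.333, edgeR adjusted p = 0.0456). It was lost when any 1 cpsf30-1 or nerd-1 library was left out, where the log2 fold change was 0.99 to 1.59 and the edgeR adjusted p 0.0673 to 0.273. Against WT neither mutant passed. The log2 fold change was 0.43 (SE 0.327, edgeR adjusted p = 0.441) in cpsf30-1 and -0.91 (SE 0.33, edgeR adjusted p = 0.429) in nerd-1. With no filter on low counts the difference in nerd-1 passed at about the same size (-0.93, SE 0.189, edgeR adjusted p = 0.000102).

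Most of the AGO8 window lies on another gene. AT5G21020, on the other strand, takes 345 of its 500 bases. The window past BPM5, which encodes a BTB/POZ-MATH adaptor of a ubiquitin ligase, has 450 bases on the same AT5G21020 and was also deep. It held 7678 and 6580 counts in cpsf30-1, 3567 and 3831 in nerd-1, and 3456 and 7254 in WT. Its level was 677 ± 93.7 CPM in cpsf30-1, 373 ± 35.6 CPM in nerd-1 and 468 ± 109 CPM in WT (SD, n = 2 each). The genotype that stood apart differed from AGO8. Past BPM5 the cpsf30-1 libraries (743 and 610 CPM) lay above WT (391 and 546 CPM), and nerd-1 (348 and 398 CPM) overlapped WT. BPM5 also passed in cpsf30-1 against nerd-1 alone, at 1.81-fold (SE 0.211 on the log2 scale, edgeR adjusted p = 0.0452), and lost that call without any 1 of those 4 libraries (0.0816 to 0.286).

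On the AGO8 side of that gene the reads were sparse. The window past AT5G21020, at chr5:7139662-7140161, begins inside the AGO8 window and covers 269 exon bases of AGO8. It held 47 and 58 counts in cpsf30-1, 62 and 38 in nerd-1, and 83 and 59 in WT. That is 4.96 ± 0.589 CPM in cpsf30-1, 5.0 ± 1.48 CPM in nerd-1 and 6.91 ± 3.5 CPM in WT (SD, n = 2 each), far under the level of the AGO8 window itself. The genotypes overlapped, and no comparison passed (edgeR adjusted p 0.537 to 0.987).

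**Figure D3:**
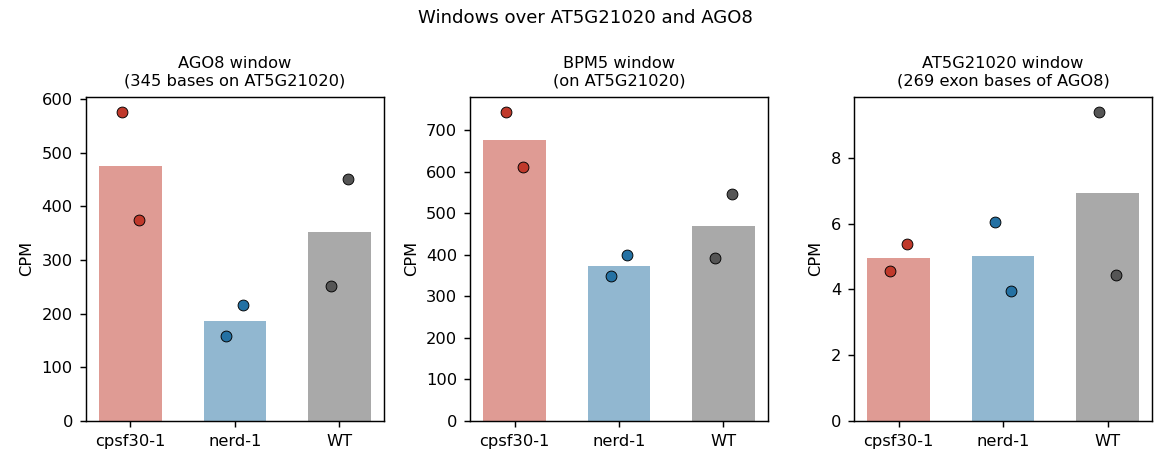
Level in CPM of the AGO8 window, the BPM5 window and the AT5G21020 window, with bars from 0 at the mean of each genotype and 1 point per library; the vertical scales differ. The windows that lie on AT5G21020 reach 475 and 677 CPM in cpsf30-1, against 4.96 CPM in the window on AGO8 exons.

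AGO10, AGO7 and AGO5 had 0 to 8 counts per library. AGO10 (AT5G43810), which holds miR165 and miR166 in the shoot meristem, had 8 and 0 counts in cpsf30-1, 6 and 2 in nerd-1, and 0 and 2 in WT (chr5:17616908-17617407, plus strand). Its window is also the one in the family with copies elsewhere in the genome, 160 matches of at least 90% identity over 100 bases or more, so the origin of those reads is uncertain. AGO7 (AT1G69440) had 2 and 3 counts in cpsf30-1, 0 and 4 in nerd-1, and 1 and 0 in WT (chr1:26100907-26101406, minus strand). AGO5 (AT2G27880), a germline member, had 0 counts in all 6 libraries (chr2:11876990-11877489, plus strand), so its level may have reached 0.339 CPM in the shallowest library and 0.226 CPM in the deepest (a limit of 3 counts). Its window reaches 69 bases into AT2G27900, whose own window was 2.14-fold higher in cpsf30-1 than in nerd-1 (edgeR adjusted p = 0.0382, lost at 0.0976 to 0.25 without any 1 of those 4 libraries).

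The order of the levels differed between genotypes, with AGO1 the second in cpsf30-1, the third in nerd-1 and the fifth in WT. AGO6 was the sixth in cpsf30-1. Its place among the lowest windows was not settled in nerd-1 (0 and 1 counts) or in WT (0 and 2 counts, level with AGO10). In cpsf30-1 the order was AGO8, AGO1, AGO4, AGO3, AGO9, AGO6, AGO2, AGO10, AGO7 and AGO5, where AGO8 and AGO1 each stood clear of the next below, AGO4, AGO3 and AGO9 overlapped in turn, and AGO9 stood clear of AGO6. In nerd-1 AGO8, AGO4, AGO1 and AGO3 came first, and AGO8, AGO4 and AGO1 did not overlap the next below. In WT AGO8 and AGO4 led without overlap, AGO9 and AGO3 followed, and AGO1 came next, overlapping AGO3 above and AGO2 below. These orders rest on 2 libraries per genotype.

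**Figure D4:**
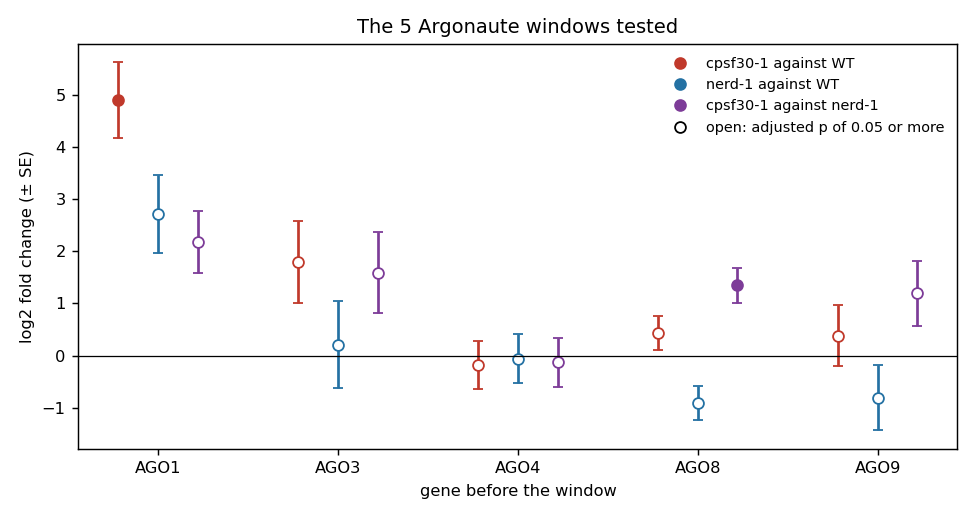
Log2 fold change with its standard error for the 5 Argonaute windows tested, in 3 comparisons per gene; filled points have an edgeR adjusted p under 0.05 and open points do not. The filled points are AGO1 in cpsf30-1 against WT at 4.90 and AGO8 in cpsf30-1 against nerd-1 at 1.35, and the AGO4 points lie close to 0.

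A cleavage complex with CPSF30 reads signals in the RNA, of which AATAAA is the best known form. In the last 50 bases of the kept transcripts these letters occurred in AGO3 (15 bases from the end) and in no other member, against 8.8% of 30618 transcripts. In the 500 bases past the end, on the strand of the gene, they occurred in AGO4, AGO5, AGO7, AGO9 and AGO10, against 45.0% of all windows, and 45.0% on the other strand. The AGO1 windows held none on either strand. Among the tested members the matches were those of AGO4 (chr2:11536258-11536287, minus strand) and AGO9 (chr5:7198767-7198796, plus strand), shown with the motif in capitals. A match describes the letters and is not a measured cleavage site.
AGO4 window: tgaacccaactcAATAAAcaaacgagataa
AGO9 window: ataaaattgtcaAATAAAacatctcttatt

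Windows past 28 genes that make, load or act with Argonaute small RNAs were set beside the family. Of the 28, 18 were tested. In cpsf30-1 against WT 0 of the 18 were called, against 10.3% of all windows, and 2 had an unadjusted p under 0.05, as had 3919 of all 14151 windows. The median log2 fold change was -0.25, against -0.0109 over all windows. In nerd-1 against WT 0 were called, against 0.0424% of all windows, and 2 had an unadjusted p under 0.05, as had 1390 of all windows. The medians were -0.22 in the list and -0.0142 over all windows. In cpsf30-1 against nerd-1 1 was called higher and 0 lower, against 10.6% of all windows in either direction, and 6 had an unadjusted p under 0.05, as had 4076 of all windows. The medians were 0.07 in the list and 0.0386 over all windows.

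The window that was called belongs to DCL1, the Dicer that cuts microRNA precursors. It held 2675 and 2188 counts in cpsf30-1, 1164 and 1165 in nerd-1, and 978 and 2153 in WT. The 1.97-fold difference between the mutants (SE 0.217 on the log2 scale, edgeR adjusted p = 0.0343) was lost without any 1 of their 4 libraries (0.0673 to 0.225). Against WT DCL1 was 1.69-fold higher in cpsf30-1 (SE 0.216 on the log2 scale, edgeR adjusted p = 0.0689), which did not pass. The log2 fold change was 0.76, and 0.51 without WT replicate 1 to 1.03 without WT replicate 2 when 1 library was left out.

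Other partner windows with the smallest p did not pass. HYL1, the double-stranded RNA-binding partner of DCL1, had log2 fold changes of 0.51 in cpsf30-1 against WT (edgeR adjusted p = 0.0882) and 0.51 against nerd-1 (edgeR adjusted p = 0.0868). SERRATE, the zinc-finger protein of the same complex, had -0.59 in cpsf30-1 against WT (edgeR adjusted p = 0.207). In nerd-1 against WT the log2 fold change was -0.96 for SPT5L, which carries AGO hooks that bind AGO4 (edgeR adjusted p = 0.402). It was 0.57 for CLSY1, a chromatin remodeller of the methylation pathway (edgeR adjusted p = 0.494), and -0.32 for SUO, which acts in translational repression by microRNAs (edgeR adjusted p = 0.629). CLSY1 had -0.69 in cpsf30-1 against nerd-1 (edgeR adjusted p = 0.104).

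Outside the family, the windows with the pattern most like that of AGO1 over the 6 libraries were those past AT1G16858 and AT1G16860 (Pearson r = 0.998 each, on log2 CPM) and SPP, the stromal processing peptidase of chloroplasts (r = 0.997). Of 14150 other windows 94 had r above 0.95. Those most like AGO8 were AT5G10946 (r = 0.998), PUP2, a purine permease (0.996), and AT3G58450 (0.993), with 176 windows above 0.95. With 6 libraries in 3 genotypes these values describe likeness and carry no test.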

How the data were processed

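The deposited values are raw counts of reads per transcript in the 500 bases past its 3′ end, per the file names, with no normalisation by the authors. Per the submitters' processing notes, the build was TAIR10 and the tools Cufflinks 2.2.1, Cuffdiff, TopHat2 2.0.7 and Bowtie2 2.3.4. How reads were counted, by strand or not, and how reads shared by windows were treated is not given here. Positions were read from TAIR10.1 (560 transcripts of 491 genes had none) and may differ from those used for the counting.

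One transcript per gene was fitted in edgeR 4.0.16 (R 4.3.3) with filterByExpr (minimum count 10), TMM and a quasi-likelihood F-test over all 6 libraries with 1 mean per genotype. P-values are two-sided and Benjamini-Hochberg adjusted over the 14151 windows tested, with a threshold of 0.05. The common biological coefficient of variation was 0.265. Alternatives were DESeq2 1.42.0, other scaling, no filter, other transcripts, a replicate block and leaving out each library, which kept the same windows. Window copies were sought with blastn 2.17.0. Exact intervals and the limit of 3 counts cover counting error alone.

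All 10 members, genes annotated in their windows, the mutated genes, the 3 partner windows with the smallest adjusted p per comparison and the 3 windows most like a called member are named. The members and lists were chosen with earlier results of these data known. D-CDES, AT1G31300 and BPM5 lie outside that naming rule and were added after their values were seen. Replicates of a group differed by more than sampling noise (chi-square per degree of freedom 6.89 to 63.2).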

Additional observations from a re-analysis of the deposited data

How the results depend on the processing

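AGO1 was called in cpsf30-1 against WT in the main test and under each alternative run, with log2 fold changes of 4.10 to 10.49 (the last with WT at 0 counts, so not a bound). The number of windows called depended more on the settings. For cpsf30-1 against WT the main count of 1453 became 2807 with no filter, 592 with the replicate block, 823 with the 4 compared libraries alone and 479 to 1159 with 1 library left out. For nerd-1 against WT the main count of 6 became 2 without TMM, 640 with no filter, 0 with the block, 17 with the crossed block, 2 with the 4 libraries, 10 with all transcripts, 160 with DESeq2 and 0 to 91 with 1 library left out. For cpsf30-1 against nerd-1 the main count of 1503 became 3021 with no filter, 409 with the block, 2440 with the crossed block and 43 to 2304 with 1 library left out. Other settings raised these counts too. For cpsf30-1 against WT they were 2118 with the crossed block, 2166 with all transcripts and 2009 with DESeq2. For cpsf30-1 against nerd-1 they were 2234 with the 4 libraries, 2133 with all transcripts and 1981 with DESeq2. Argonaute windows called stayed at 1 in cpsf30-1 against WT. In nerd-1 against WT the 0 became 2 with no filter (AGO1 at 2.71 and AGO8 at -0.93) and 0 to 1 with 1 library left out. In cpsf30-1 against nerd-1 the 1 became 2 with no filter, the crossed block or the 4 libraries, 0 with the block, and 0 to 2 with 1 library left out. The replicate numbers do not pair the libraries (correlation of deviations -0.311, -0.005 and -0.001), and with them as a replicate block AGO8 fell short in cpsf30-1 against nerd-1 (1.39 on the log2 scale, adjusted p = 0.0975). The crossed block, chosen after seeing the data because the first correlation was negative, brought AGO1 in cpsf30-1 against nerd-1 past the threshold (2.18, adjusted p = 0.0345). With 1 library left out the sign of AGO4 turned in nerd-1 against WT (-0.53 without WT replicate 2 to 0.60 without WT replicate 1, and 0.03 with the crossed block), in cpsf30-1 against WT (-0.71 to 0.48) and in cpsf30-1 against nerd-1 (-0.66 to 0.21). That of AGO3 turned in nerd-1 against WT (-0.44 without nerd-1 replicate 1 to 1.02 without WT replicate 2). For the counts and signs the cause was not tested. AGO2, AGO5, AGO6, AGO7 and AGO10 were too low for the main test, and none passed with no filter on low counts in the 3 comparisons, AGO5 being at 0 throughout.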
